A study of Homo sapiens with 5 samples.

Results

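Keratins are the intermediate filament proteins of epithelial cells, and 8 of their genes were followed here in human embryonic stem cells (hESC) that expressed wt or mutant miR-122. These were KRT7, KRT8, KRT18, KRT19 and KRT23 of simple epithelia and KRT5, KRT14 and KRT17 of stratified epithelia. Members were all probe sets whose gene symbol in the platform annotation is 1 of these 8, which gave 8 probe sets of 7 genes among 11963 genes named on the array. No probe set carried the symbol KRT17 in that annotation, and KRT17 was not analysed here, so the stratified group holds KRT5 and KRT14.

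The cells were HES2, an established hESC line, transduced with a lentiviral vector that expressed hsa-miR-122 in its wt form (2 arrays) or with a changed seed sequence (mutant, 3 arrays). Both vectors used the constitutive polymerase III promoter H1 and carried a red fluorescent reporter, and both groups were then left to differentiate spontaneously for 2 weeks, off their foreskin feeder cells and without bFGF. The study's methods call the arrays independent experiments of these transduced cultures. All cells of a culture were measured together, so fewer cells of a type and less RNA per cell cannot be told apart.

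A keratin filament is built from pairs of 1 type I and 1 type II keratin. KRT8 (type II) and KRT18 (type I) are the founding pair of simple, single-layered epithelia and are the first keratins of the embryo, and KRT7 and KRT19 join them in ductal and glandular epithelia and in trophoblast. KRT5 (type II) and KRT14 (type I) form the pair of the basal layer of stratified epithelia such as epidermis. In RefSeq, KRT8 and KRT18 are direct neighbours, although most type I genes lie in another cluster. KRT8, KRT18 and KRT19 are widely used to follow the epithelial identity of differentiating hESC, including cells on the way to hepatocytes and cholangiocytes.

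The mature RNA that separates the groups is given because its seed, the stretch that pairs with target mRNAs, is what the mutant vector alters. It lies on the + strand at chr18:58451088-58451109 of GRCh38.p14, the sequence is from RefSeq, and the capitals mark the seed, bases 2 to 8.
hsa-miR-122-5p: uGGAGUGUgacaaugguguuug

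Values are log2 values normalised by the authors with RMA, 1 per probe set and array. A difference is the wt mean minus the mutant mean on this log2 scale, given with the standard error (SE), 95% interval and adjusted p of limma fitted over all 22215 probe sets. Array medians lay between 6.33 and 6.37 and the correlation between arrays over all probe sets between 0.995 and 0.997. A percentile of level ranks the mean of the 5 arrays of a probe set among all probe sets, and says only how bright it was. The number of arrays limits the precision.

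The 5 simple keratins had lower means in wt than in mutant miR-122-expressing cells, and the stratified KRT5 and KRT14 were dim, with log2 differences of 0.13 and -0.0039. Of all 8 probe sets, 7 had a lower mean in wt, where 42.1% of all probe sets did. Among the 7 were KRT14 and the dimmer of 2 KRT7 probe sets, at -0.0039 and -0.016. Both were dim, and both changed sign in other fits. KRT7 had the largest difference of the 8, 1.71-fold lower in wt on the brighter of its 2 probe sets (95% interval 1.27 to 2.30), and KRT8, KRT18 and KRT19 were 1.19- to 1.21-fold lower. None of the 8 keratin probe sets reached an adjusted p below 0.05 in limma, 0 higher and 0 lower, where 0.194% of all probe sets passed as higher and 0.189% as lower. At an unadjusted p under 0.05, 4 of the 8 were lower and 0 higher by limma, where 6.37% of all probe sets were lower and 8.06% higher. By the methods' t-test, 0 of the 8 were under an unadjusted p of 0.05 in either direction, where 873 of all 22215 probe sets were lower and 1551 higher.

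KRT8 and KRT18, the pair of simple epithelia, were both near the top of the range of the arrays. KRT8 was at 12.64, 12.62 and 12.54 in mutant replicates 1, 2 and 3, and at 12.49 and 12.16 in wt replicates 1 and 2. Both wt arrays lay below all mutant arrays, wt replicate 1 by 0.051 and wt replicate 2 by far more. Averages were 12.60 ± 0.055 for mutant (SD, n = 3) against 12.32 ± 0.23 for wt (SD, n = 2), so that wt minus mutant was -0.28 on the log2 scale (SE 0.11, 95% interval -0.52 to -0.03, limma adjusted p = 0.294).

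KRT18 was at 13.35, 13.30 and 13.37 in the mutant and at 13.23 and 12.91 in the wt arrays, in the same order of replicates. The groups again did not overlap, and wt replicate 2 was again the lowest. The log2 difference was -0.27 (SE 0.10, 95% interval -0.50 to -0.03, adjusted p = 0.296, limma). The partners thus gave nearly the same difference, and whether their differences differ was not tested. The probe sets of both are of the kind whose probes can match several transcripts, and RefSeq annotates 52 pseudogenes of KRT8 and 68 of KRT18, so part of either signal may be shared with near-identical copies.

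KRT19, a type I keratin of ducts and of early embryonic epithelia, was measured by a probe set that is not of that kind. RefSeq still annotates 5 pseudogenes of KRT19. KRT19 was at 12.37, 12.40 and 12.13 in the mutant and at 12.15 and 11.94 in the wt arrays. The groups overlapped, since mutant replicate 3 lay just below wt replicate 1. Averages were 12.30 ± 0.14 for mutant (SD, n = 3) against 12.04 ± 0.15 for wt (SD, n = 2), which leaves a log2 difference of -0.26 (SE 0.11, 95% interval -0.51 to -0.0064, adjusted p = 0.334, limma). The levels of KRT8, KRT18 and KRT19 lay at the 99.1st, 99.6th and 98.8th percentile. Among the 301 probe sets with a mean above 12, a bound set after the values were seen, the median difference was 0.04, and 13.6% lay lower in both wt arrays than in any mutant array.

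KRT7, a type II keratin of ductal epithelia and trophoblast, was seen on 2 probe sets that behaved differently. On the brighter one it was at 8.84, 9.11 and 8.75 in the mutant and at 8.45 and 7.80 in the wt arrays. All mutant arrays lay above wt replicate 1 by at least 0.30, and wt replicate 2 lay a further 0.65 below. Mutant arrays averaged 8.90 ± 0.18 (SD, n = 3) against 8.13 ± 0.46 for wt (SD, n = 2), and the log2 difference was -0.77 (SE 0.19, 95% interval -1.20 to -0.34, adjusted p = 0.132, limma). Both KRT7 probe sets, like that of KRT23, are also of the kind that can match several transcripts. The second KRT7 probe set was dim, at the 24.1st percentile against the 81.2nd of the first. Its values ran from 4.41 to 4.45 in the mutant and from 4.39 to 4.45 in the wt arrays, with overlapping groups and a log2 difference of -0.02 (SE 0.073, adjusted p = 0.942, limma).

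KRT23, a type I keratin found in some glandular epithelia, was at 6.62, 6.85 and 6.45 in the mutant and at 6.44 and 6.55 in the wt arrays. The groups overlapped, and the log2 difference of -0.14 was within the spread of the mutant arrays (SE 0.12, 95% interval -0.42 to 0.13, adjusted p = 0.631, limma). It was -0.036 without mutant replicate 2 and -0.24 without mutant replicate 3. Here wt replicate 1, not wt replicate 2, was the lowest of the 5 arrays.

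**Figure D1:**
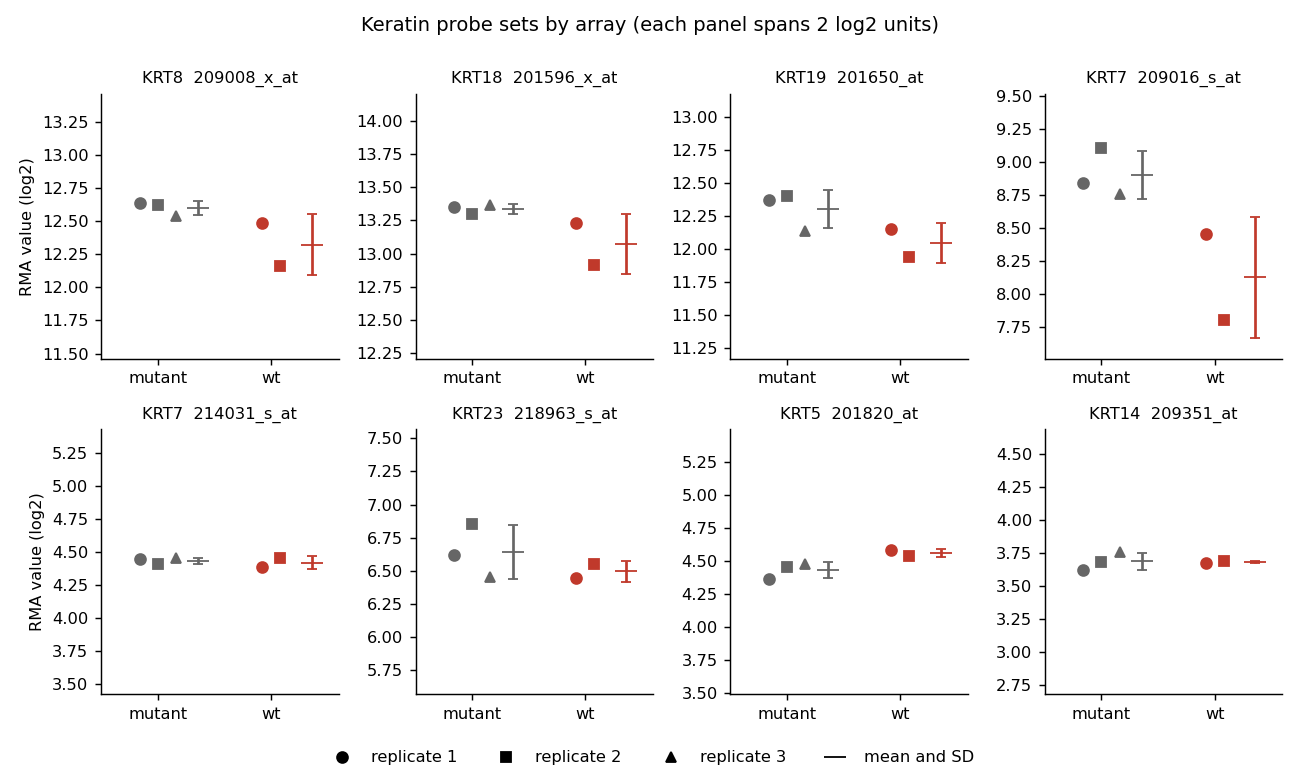
RMA values (log2, y axis) of the 8 keratin probe sets in 3 mutant (grey) and 2 wt (red) miR-122 arrays, with symbols for single arrays, bars for mean and SD, and a y axis of the same length in each panel. On KRT8, KRT18 and the bright KRT7 probe set both wt arrays lie below all mutant arrays with wt replicate 2 lowest, while KRT14 and the dim KRT7 probe set show no separation.

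Of the stratified pair, KRT5 was at 4.36, 4.45 and 4.48 in the mutant and at 4.58 and 4.54 in the wt arrays. Both wt arrays lay above the mutant arrays, by 0.061, and the log2 difference of 0.13 did not pass (SE 0.076, 95% interval -0.05 to 0.30, adjusted p = 0.486, limma). KRT14 was at 3.63, 3.68 and 3.76 in the mutant and at 3.68 and 3.69 in the wt arrays. Its groups overlapped, with a log2 difference of -0.0039 (SE 0.076, 95% interval -0.18 to 0.17, adjusted p = 0.989, limma). Both were dim, at the 24.9th and 13.3rd percentile, so a change in either could have gone unseen at this signal.

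Set side by side, the 5 simple keratins had a median log2 difference of -0.27 and the 2 stratified keratins of 0.06, where the median of all probe sets was 0.03. The mean of the simple group lay 0.41 below that of the stratified group, with KRT7 at -0.77 and the other simple keratins at -0.28 to -0.14. The mean difference was -0.34 for the simple and 0.06 for the stratified group, so the gap came mostly from the simple keratins. Both stratified probe sets were dim, and a change in either could have gone unseen. With each gene centred on its mean of the 5 arrays, the simple minus stratified value was 0.23, 0.25 and -0.0018 in mutant replicates 1 to 3 and -0.11 and -0.37 in wt replicates 1 and 2. Both wt arrays were below all mutant arrays, and mutant replicate 3 stood nearer to wt replicate 1 than to the other mutant arrays. Since the genes were chosen with results known, no p is given for this contrast.

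Of all 8 keratin probe sets, 3 had both wt arrays below all mutant arrays (the bright KRT7 probe set, KRT8 and KRT18) and 1 had both above (KRT5), where 12.5% and 20.3% of all probe sets did. The sizes rested in large part on wt replicate 2. It lay below wt replicate 1 on 5 of the 8, where 54.9% of all probe sets had that order, and was the lowest array for the bright KRT7 probe set, KRT8, KRT18 and KRT19, 4 of the 8, where it was so for 22.2% of all probe sets. Without it, the log2 difference was -0.11 for KRT8, -0.11 for KRT18, -0.15 for KRT19 and -0.45 for the bright KRT7 probe set, and without wt replicate 1 it was -0.44, -0.43, -0.36 and -1.10 in the same order. All 4 kept their sign when any array was left out, and only KRT7 stayed under an unadjusted p of 0.05 without wt replicate 2.

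**Figure D2:**
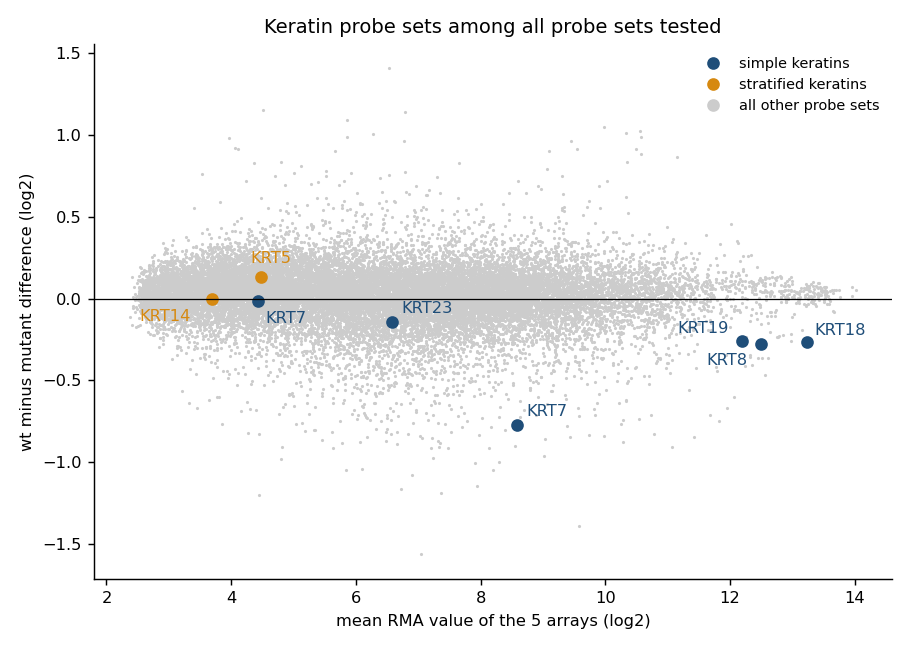
Mean RMA value of the 5 arrays (log2, x axis) against the wt minus mutant difference (log2, y axis) of all 22215 probe sets (grey), with simple (blue) and stratified (orange) keratins named. KRT8, KRT18 and KRT19 lie at the bright end between -0.28 and -0.26, the bright KRT7 probe set at -0.77, and KRT5, KRT14 and the dim KRT7 probe set at the dim end near 0.

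The rest of the family was mostly dim. The 25 other keratin genes measured include the hair keratins and the keratins of suprabasal and cornified layers. Past the adjusted threshold of limma, 0 of them were higher and 0 lower. At an unadjusted p under 0.05, 2 were higher and 0 lower, where 8.06% and 6.37% of all probe sets were. Their differences ran from -0.15 to 0.25 with a median of 0.01, and 24 of the 25 lay below the median level of all probe sets. The exception was KRT10, the type I keratin of suprabasal epidermis, which averaged 8.96 ± 0.13 for mutant (SD, n = 3) against 8.92 ± 0.037 for wt (SD, n = 2), wt minus mutant being -0.05 (SE 0.093, limma adjusted p = 0.857). KRT83, a hair keratin, KRT15, a keratin of basal cells, and KRT9, the keratin of palm and sole skin, had the smallest p-values of the list. KRT83 gave 0.22 (adjusted p = 0.247), KRT15 gave 0.23 (adjusted p = 0.259) and KRT9 gave 0.25 (adjusted p = 0.397), all from limma, and all 3 lay below the median level.

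**Figure D3:**
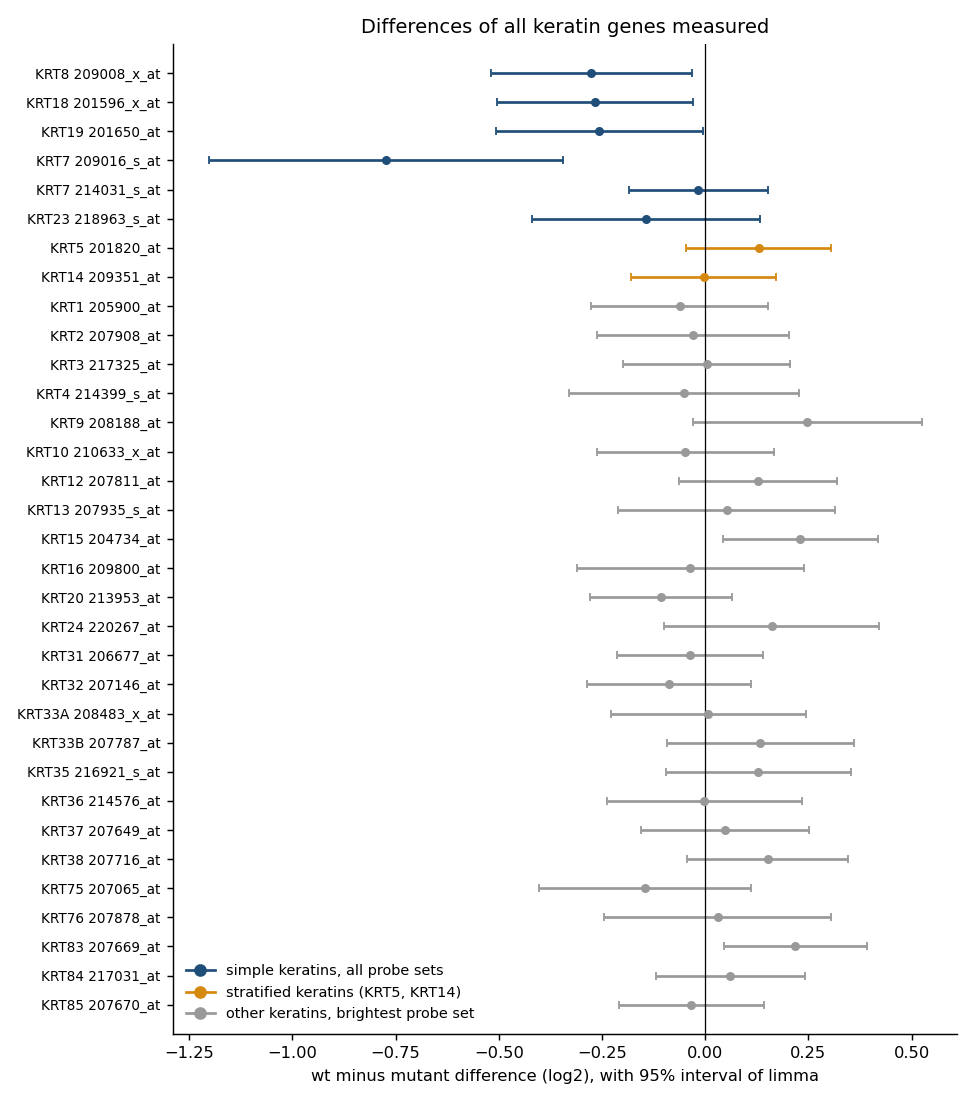
Difference between wt and mutant miR-122-expressing cells (log2, x axis) with the 95% interval of limma for the 8 keratin probe sets (blue simple, orange stratified) and the brightest probe set of 25 other keratin genes (grey). The intervals of the bright KRT7 probe set, KRT8, KRT18 and KRT19 lie below 0, those of KRT15 and KRT83 above, and all others include 0.

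Keratin filaments end on desmosomes, which hold neighbouring epithelial cells together. Of 15 measured genes of desmosomes and keratin linkers, 8 had a lower and 7 a higher mean in wt, with a median difference of -0.07. Both wt arrays lay below all mutant arrays for 4 of them, DSP and JUP included, where 12.5% of all probe sets did. They lay above for 2, PKP1 and EVPL, where 20.3% did. Past the adjusted threshold of limma 0 were higher and 0 lower. At an unadjusted p under 0.05 there were 4 lower and 1 higher, where 6.37% and 8.06% of all probe sets were. DSP, desmoplakin, which binds keratin to the desmosome, was at 12.28, 12.43 and 12.33 in the mutant and at 12.13 and 12.09 in the wt arrays. Its groups did not overlap and its wt arrays lay close together, unlike those of KRT8 and KRT18, and wt minus mutant was -0.24 (SE 0.078, adjusted p = 0.232, limma). JUP, plakoglobin, gave -0.23 (SE 0.088, adjusted p = 0.293), and PKP1, a plakophilin of stratified epithelia seen at a dim level, gave 0.21 (SE 0.076, adjusted p = 0.269). Of 6 measured genes of hemidesmosomes, which tie keratin to the basement membrane, 0 passed the adjusted threshold, and CD151 was lower and ITGA6 higher at an unadjusted p under 0.05. CD151, a tetraspanin, gave -0.24 (adjusted p = 0.206), the integrin subunit ITGA6 gave 0.21 (adjusted p = 0.295) and the linker PLEC gave -0.16 (adjusted p = 0.372), all from limma.

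Among 13 other intermediate filament genes, 0 passed the adjusted threshold of limma, with a median difference of 0.03. At an unadjusted p under 0.05, 4 were higher and 3 lower, where 8.06% and 6.37% of all probe sets were. INA, a neuronal filament protein, was at 7.22, 7.33 and 7.30 in the mutant and at 7.62 and 7.59 in the wt arrays, so wt minus mutant was 0.32 (SE 0.075, adjusted p = 0.121). NES, the filament protein of neural progenitors, gave -0.26 (SE 0.082, adjusted p = 0.209), and LMNA, which encodes the A-type lamins of the nuclear envelope, gave -0.25 (SE 0.08, adjusted p = 0.219). VIM, the filament protein of mesenchymal cells, lay at the 99.6th percentile of level and gave -0.19 (SE 0.074, adjusted p = 0.3). VIM was named after its values were seen.

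Of 10 measured transcription factors and regulators of epithelia, 0 passed the adjusted threshold of limma, with a median difference of 0.07. At an unadjusted p under 0.05, 3 were higher and 0 lower, where 8.06% and 6.37% of all probe sets were. TFAP2C, an AP-2 factor of trophoblast and surface ectoderm, gave 0.32 (SE 0.092, adjusted p = 0.186), ESRP1, an epithelial splicing regulator kept in this list, gave 0.32 (SE 0.096, adjusted p = 0.198), and KLF4, a factor of epidermis, gave 0.44 (SE 0.19, adjusted p = 0.336). The groups of KLF4 overlapped. Of the 10, 6 had a higher and 4 a lower mean in wt, the lowest being GRHL2, a grainyhead factor, at -0.23 (adjusted p = 0.409). Of 13 genes of cornification, the last step of epidermal maturation, 0 passed and 12 lay below the median level of all probe sets. Their median difference was 0.07. At an unadjusted p under 0.05, 1 was higher and 0 lower, where 8.06% and 6.37% of all probe sets were. CDSN, corneodesmosin, gave 0.17 (adjusted p = 0.342), LORICRIN, a cornified envelope protein, gave 0.19 (adjusted p = 0.397) and the protease KLK7 gave 0.15 (adjusted p = 0.529), all from limma.

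Markers of other cell types were read in the same arrays, and of the 5 lists those of hESC and trophoblast held genes past the adjusted threshold. Of all probe sets, 0.194% passed it as higher and 0.189% as lower. Of 11 measured markers of undifferentiated hESC, DNMT3B at 0.72, UTF1 at 0.75 and FGF4 at 0.56 rose, 0 fell and 8 missed the adjusted threshold of limma. Their mean level was 8.24 to 8.41 over the mutant and 8.82 over both wt arrays, with no marker below the median level of all probe sets. Of 12 measured trophoblast markers, HSD3B1, an enzyme of placental steroid synthesis, was the 1 that fell while 0 rose and 11 missed the threshold. In all, 9 of the 12 had a lower and 3 a higher mean in wt. Among the higher was PSG1 at 0.16, with both wt arrays above all mutant arrays. The mean level of the 12 was 6.44 to 6.56 over the mutant and 6.21 to 6.28 over the wt arrays. Their median difference was -0.07 and their mean difference -0.25, with HSD3B1 and CGA as the widest differences. HSD3B1 was at 7.58, 7.45 and 7.96 in the mutant and at 6.47 and 5.74 in the wt arrays, which gives -1.56 on the log2 scale (adjusted p = 0.0424). Like KRT7 it was lowest in wt replicate 2. CGA, the alpha chain of chorionic gonadotropin, gave -1.08 (limma adjusted p = 0.0837) with 6.26 in both wt arrays, and INSL4 gave -0.20 (limma adjusted p = 0.275). Of the 12 trophoblast markers, 6 lay below the median level of all probe sets, namely INSL4, PSG1, GCM1, CYP19A1, CYP11A1 and CSH1.

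Of 13 measured fibroblast markers, 0 passed the adjusted threshold, with a median of -0.36. At an unadjusted p under 0.05, 7 were lower and 0 higher by limma, where 6.37% and 8.06% of all probe sets were. The smallest p-values were those of PDGFRB at -0.56 (adjusted p = 0.0521), COL1A1 at -0.60 (adjusted p = 0.0711) and COL3A1 at -0.71 (adjusted p = 0.0934), all from limma. Of the 13, 9 had a lower and 4 a higher mean in wt, the latter being THY1, FAP, TWIST1 and PRRX1 at 0.07 to 0.23 with overlapping groups. Their mean level was 8.13 to 8.45 over the mutant and 7.82 to 8.08 over the wt arrays, and here wt replicate 1 was the lowest array, not wt replicate 2. Of 6 mesothelium markers, 0 passed, the median was 0.09 and all lay below the median level of all probe sets. Their mean level was 4.37 to 4.39 over the mutant and 4.33 to 4.42 over the wt arrays, with BNC1 at -0.46 (adjusted p = 0.106), WT1 at 0.23 (adjusted p = 0.416) and PRG4 at 0.20 (adjusted p = 0.452). Of 12 markers of hepatocytes and cholangiocytes, cells in which KRT8, KRT18, KRT7 and KRT19 are known, 0 passed or were under an unadjusted p of 0.05, and their mean level overlapped between the groups, with 6.34 to 6.91 over the mutant and 6.49 to 6.95 over the wt arrays. APOA2 gave 0.37 (adjusted p = 0.56), FGB gave 0.58 (adjusted p = 0.615) and SERPINA1 gave 0.30 (adjusted p = 0.682), each with overlapping groups. In all, 7 of the 12 had a higher and 5 a lower mean in wt. The widest difference was that of ALB, serum albumin, at -0.82 (limma adjusted p = 0.686) with overlapping groups, named after its values were seen. ALB was at 6.46, 3.96 and 3.37 in mutant replicates 1, 2 and 3 and at 4.31 and 3.24 in the wt arrays. Its difference thus rested on mutant replicate 1. The part of these cell types in the lower simple keratins was not tested.

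**Figure D4:**
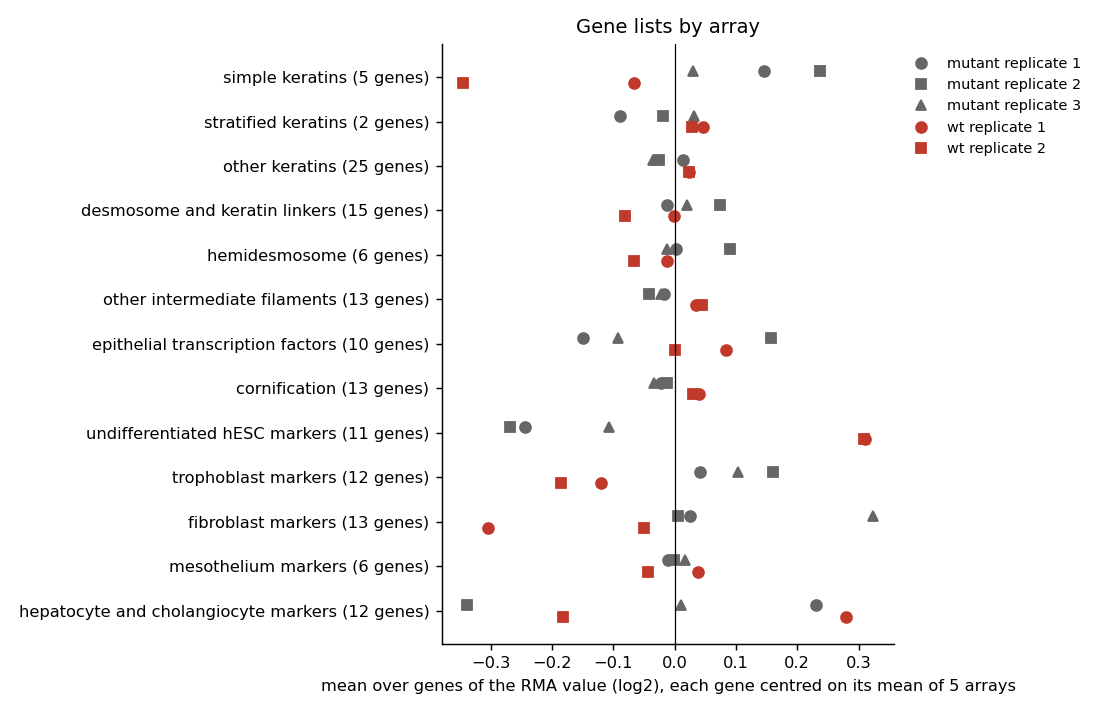
Mean over the genes of each list of the RMA value (log2, x axis), each gene centred on its mean of the 5 arrays, for 3 mutant (grey) and 2 wt (red) arrays. For the simple keratins wt replicate 2 lies at -0.35 and wt replicate 1 at -0.07, below all mutant arrays, while both wt arrays lie at 0.31 for the hESC markers and the groups mix for the hepatocyte and cholangiocyte markers.

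The genes whose pattern over the 5 arrays was most like that of the bright KRT7 probe set were STS, PIEZO2 and PRSS12, among 11956 genes compared. Likeness was the Euclidean distance between array values centred on their mean, with 5 arrays as the points. STS, steroid sulfatase, lay at a distance of 0.197 where the pattern of KRT7 itself has a size of 0.998, and was at 7.34, 7.65 and 7.39 in the mutant and at 6.93 and 6.51 in the wt arrays. PIEZO2, a mechanically gated channel, lay at 0.26 and PRSS12, a serine protease, at 0.283. Both had wt arrays below all mutant arrays and wt replicate 2 lowest, an order that choosing genes by likeness to KRT7 favours. For KRT5, whose pattern has a size of only 0.167, the nearest were TRIM37, HEATR1 and KIF14, at distances of 0.0177, 0.0232 and 0.0238.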

How the data were processed

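Values of 5 Affymetrix Human Genome U133A 2.0 arrays were used as deposited. The authors normalized them with RMA (background correction, quantile normalization and summary of the probes), and each deposited value is a log2 level of a probe set. The brightest value was 14.26. Replicates were not pooled.

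From these, 62 control probe sets were left out and 22215 entered 1 model (limma 3.58.1, R 4.3.3, functions lmFit and eBayes) with group as the only term and p-values Benjamini-Hochberg adjusted over all of them at a threshold of 0.05. No filter on low values was applied. The fit had 3 residual and 4.87 prior degrees of freedom, and the median SE of a difference was 0.088. Probe sets were named through the platform annotation, with current symbols by Entrez ID for 19058. 19064 name 1 gene, 1043 several and 2108 are unnamed here. A gene in a list is taken at its probe set with the highest mean. Lists were written from general knowledge. Members and lists were chosen with earlier results of these data known. Besides the members, the rule named up to 3 genes per list with the smallest p and the 3 nearest patterns. As alternatives, each array was left out in turn, and the fit was repeated with a replicate block, with array weights, with medians subtracted, with a trend and robust prior, without dim probe sets and without probe sets that match several transcripts, beside the methods' t-test and a list value averaged over every probe set of its genes. Python 3.11.15 with matplotlib 3.10.9 gave the figures.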

Additional observations from a re-analysis of the deposited data

How the results depend on the processing

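No keratin probe set reached an adjusted p below 0.05 in any setting but the replicate block, where 1 was lower, the bright KRT7 probe set at -0.85 (adjusted p = 0.00259). That fit takes same-numbered arrays as pairs, which no source states, leaves 1 residual degree of freedom and gives mutant replicate 3 no weight. Deviations from the group means correlated over probe sets at 0.147 and 0.123 for the same-numbered pairs, and the block changed no other keratin call at the adjusted threshold.

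The median log2 difference of the simple keratins ran from -0.43 without wt replicate 1 to -0.15 without wt replicate 2. With the filter on dim probe sets no stratified keratin was left, and the contrast could not be made. Simple minus stratified was -0.41 in the main fit and -0.33 with every probe set of a gene averaged. Without probe sets that match several transcripts it was -0.32. With an array left out it ran from -0.54 without wt replicate 1 to -0.28 without wt replicate 2. KRT14 turned to 0.030 with the replicate block, 0.0014 with array weights and 0.0039 with medians subtracted, and ran from -0.035 to 0.030 with an array left out. The dim KRT7 probe set ran from -0.050 to 0.017 likewise. Removing probe sets that match several transcripts left only those of KRT19, KRT5 and KRT14, with KRT19 unchanged at -0.26. At an unadjusted p under 0.05, the count of lower keratin probe sets was 4 by limma and 5 with the replicate block, where KRT23 joined. The count was 0 by the methods' t-test and 1, that of KRT19, without probe sets that match several transcripts. It was 1, 2 and 3 without mutant replicates 1, 2 and 3. Over all probe sets the lower count was 1415 by limma, 1676 with the block and 873 by the methods' t-test. Without probe sets that match several transcripts it was 753, out of a smaller set. Without mutant replicates 1, 2 and 3 it was 1206, 1489 and 1280.

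Over the whole array, limma gave 43 higher and 42 lower. The counts were 0 and 0 by the methods' t-test after adjustment, 137 and 183 with a trend and robust prior, and 364 and 531 with the replicate block. The filter on dim probe sets gave 62 and 97, and leaving out an array gave 0 to 3 higher and 0 lower.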
